A study of Arabidopsis thaliana with 21 samples.

Results

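The genes described here encode 10 enzymes of carotenoid synthesis and the xanthophyll cycle in Arabidopsis thaliana. The rule that selects them names loci of the pathway and uses no measured value, and all 10 of the 33341 counted loci were found in every file and passed the filter on low counts. Rosettes of the accession Col-0 were harvested at 21 days from plants grown at 22 °C with days of 16 h and nights of 8 h. High light of 500 µE was given for 2, 5 or 8 h after the night (T2H, T5H and T8H), standard light of 100 µE for the same times (T2L, T5L and T8L), and the dark group was taken at the end of the night (T0D). Each of the 7 groups held 3 libraries, stated to be biological triplicates, and no group carried a mutation, transgene or chemical. All shoots were enclosed in sealed growth chambers overnight, and intensity was set by the distance to the LED lamp, so other conditions that change with that distance cannot be told apart from intensity. The number of plants behind each sample was not stated in the labels, so p-values describe variation among these samples.

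Carotenoids are plastid isoprenoids that colour leaves yellow, extend light capture and quench excess excitation and singlet oxygen. Phytoene synthase (PSY) makes the first C40 carotene, and phytoene desaturase (PDS3) begins its conversion towards lycopene. Lycopene is then cyclised by lycopene beta-cyclase (LYC) alone into beta-carotene, or by LYC together with lycopene epsilon-cyclase (LUT2) into alpha-carotene, the precursor of lutein. The cytochrome P450 hydroxylases LUT5 and LUT1 hydroxylate the rings of alpha-carotene to give lutein. The non-heme beta-carotene hydroxylases BCH1 and BCH2 turn beta-carotene into zeaxanthin. Zeaxanthin epoxidase (ABA1) converts zeaxanthin to violaxanthin, which is also a precursor of abscisic acid. Violaxanthin de-epoxidase (NPQ1) reverses that step in the thylakoid lumen in excess light, and zeaxanthin promotes the dissipation of excitation energy as heat. The de-epoxidase is activated by the acid lumen, so its activity is not read from its transcript.

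Promoter sequence is shown for BCH1, the member with the largest high-light effect, for its paralogue BCH2, and for ABA1, whose enzyme uses their product. Each is the 250 bases upstream of the annotated start on the strand of the gene, 5′ to 3′, read from the RefSeq genome TAIR10.1. These are chr4:13096050-13096299, chr5:21337127-21337376 and chr5:26757403-26757652, all on the minus strand. Capitals mark matches to 4 motifs searched on both strands: the G-box CACGTG, the ATCTA element, the evening element AAAATATCT and the CCA1-binding site AAAAATCT.
BCH1: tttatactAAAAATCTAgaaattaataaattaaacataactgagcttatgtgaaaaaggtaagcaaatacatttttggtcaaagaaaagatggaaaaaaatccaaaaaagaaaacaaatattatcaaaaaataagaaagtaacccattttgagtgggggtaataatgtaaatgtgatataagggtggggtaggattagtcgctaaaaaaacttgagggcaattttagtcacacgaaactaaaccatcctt
BCH2: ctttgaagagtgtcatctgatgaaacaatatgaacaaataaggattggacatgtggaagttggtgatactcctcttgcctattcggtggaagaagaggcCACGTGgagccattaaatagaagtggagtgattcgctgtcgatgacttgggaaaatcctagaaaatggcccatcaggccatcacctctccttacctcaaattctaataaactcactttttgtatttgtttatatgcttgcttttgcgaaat
ABA1: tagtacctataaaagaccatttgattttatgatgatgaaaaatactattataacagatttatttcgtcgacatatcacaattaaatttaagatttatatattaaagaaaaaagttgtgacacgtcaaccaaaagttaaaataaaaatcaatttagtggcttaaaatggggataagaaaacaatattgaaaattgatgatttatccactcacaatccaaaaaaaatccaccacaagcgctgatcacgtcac
The BCH1 window held AAAAATCT at 242 to 235 bases before the start, overlapping an ATCTA at 238 to 234 bases. The BCH2 window held 1 G-box, at 151 to 146 bases before the start, and the ABA1 window held none of the 4 motifs. Of the 10 members, 1 had CACGTG, 3 had ATCTA, 0 had AAAATATCT and 1 had AAAAATCT. Among 27437 promoters of the same length, 6.49% held CACGTG, 49.2% ATCTA, 2.36% AAAATATCT and 6.69% AAAAATCT. A match is a description of letters in a window and not a measured binding site.

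The RNA was from whole rosettes, and the 4 leaf mesophyll markers were present in every group, with a summed level of 7503 to 30193 CPM, the counts of a locus divided by the scaled library total and given per 1e6. Summed levels were 80.6 to 224 CPM for 3 vascular markers, 20.8 to 33.9 CPM for 3 guard cell markers, 8.77 to 36.4 CPM for 3 dividing cell markers, 0.378 to 10.6 CPM for 2 trichome markers and 6.45 to 30.6 CPM for 8 root markers, nearly all of the root sum from PYK10, with 3 or 4 of the 8 at 0 in each group. Against standard light, 3 mesophyll markers and 1 trichome marker rose at 5 h, 1 mesophyll and 1 vascular marker fell at 8 h, and no marker passed at 2 h. At 5 h the summed mesophyll level ran from 8134 to 27054 CPM over the T5H libraries, against 11389 to 12187 CPM in T5L, so the groups overlapped. Of all 19626 tested loci, 12% changed at 5 h, 15.4% at 8 h and 2.66% at 2 h. The shifts against the dark are given with those comparisons. Their part in the members' values was not tested. A lower level in such bulk tissue cannot be told apart from fewer cells of a type. Libraries held 6545003 to 31449700 counts, and 3 counts, taken as the limit of detection, corresponded to 0.0954 to 0.458 CPM. Ribosomal RNA took 0.0423 to 32.9% of the counts. T5H replicate 3 stood apart from its group at 32.9%, against 0.072 and 0.0423% in replicates 1 and 2. The share also differed between the lights at 2 and 8 h. It was 0.0752 to 4.98% in T2H, against 4.57 to 17.2% in T2L, and 19.0 to 26.0% in T8H, against 3.58 to 8.55% in T8L. No pair of replicates differed as little as counting noise alone would give. T5H replicate 3 also stood apart over all loci. By chi-square per degree of freedom, it differed from replicates 1 and 2 by 539 and 346, and those differed from each other by 32.7. In the other groups the largest value was 111.

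Levels differed widely among the members. Per kilobase of annotated exon, ABA1 was the most abundant in the dark at 124 ± 9.52 CPM per kb (SD, n = 3), followed by PSY at 64.1 ± 15.9 and LYC at 28.3 ± 1.43 CPM per kb. NPQ1, PDS3, LUT5, BCH1 and BCH2 followed at 21.7, 18.8, 17.8, 14.3 and 11.9 CPM per kb, and within this run each gene and the next lay closer than the sum of their SDs. LUT2 (8.66 ± 1.38 CPM per kb) and LUT1 (5.20 ± 0.476 CPM per kb) were lowest. The order differed by group. After 2 h of high light BCH1 was the third member at 48.8 ± 13 CPM per kb, and NPQ1 was the last at 7.61 ± 0.798 CPM per kb. After 8 h PSY led, at 61.7 ± 6.98 CPM per kb in T8H and 57.1 ± 5.22 in T8L. BCH2 was last, at 0.472 ± 0.480 CPM per kb in T8H and 0.387 ± 0.111 in T8L. Counts include reads in introns, so these levels are approximate.

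**Figure D1:**
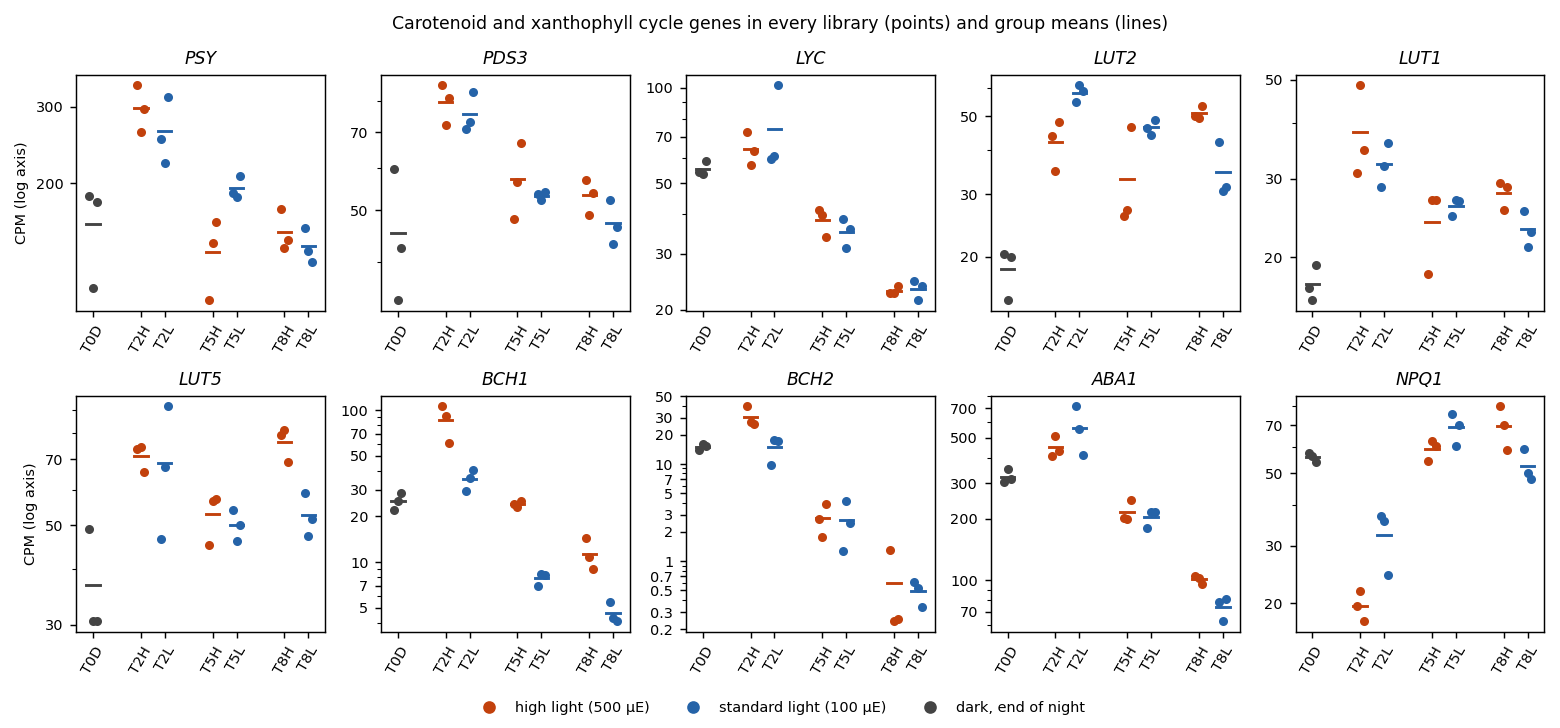
Level of each member in every library, in CPM on a log axis that does not start at 0, with horizontal lines at group means of 3 libraries. BCH1 in high light lies above standard light at each time, at 60.9 to 106 CPM against 29.4 to 40.1 CPM at 2 h, while LYC, BCH2 and ABA1 are lower in both lights at 8 h than at 2 h.

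High light was first compared with standard light at each time. The beta-carotene hydroxylase BCH1 rose at 2, 5 and 8 h, NPQ1 fell at 2 h, and no other member passed the test at a single time. At 2 h 2 of 10 members changed, where 2.66% of all 19626 tested loci did. At 5 h it was 1 of 10, where 12% of loci changed, and at 8 h again 1 of 10, where 15.4% did. The 5 h counts depended on T5H replicate 3. Without it PSY and LUT2 passed as well, and 4678 of 20127 loci changed, in place of 2361 of 19626. The median log2 fold change of the members was 0.06 at 2 h, 0.06 at 5 h and 0.43 at 8 h, beside 0.00, 0.02 and -0.03 over all tested loci. Averaged over the 3 times, 1 of 10 members changed, where 21.9% of loci did. The averaged value of BCH2 was 0.59 (adjusted p = 0.114). It passed without a count filter (0.0345) and without T5L replicate 2 (0.0433), but was 0.05 (adjusted p = 0.962) without T8H replicate 1. LUT5 passed on average without T2L replicate 3 (adjusted p = 0.0475).

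BCH1 (AT4G25700, chromosome 4, 13093869 to 13096049) encodes the first of the 2 non-heme beta-carotene hydroxylases. At 2 h it had 106, 91.5 and 60.9 CPM in the T2H libraries, against 29.4, 35.9 and 40.1 CPM in T2L. At 5 h the values were 24.0, 22.9 and 25.1 CPM in T5H, against 6.92, 8.32 and 8.20 CPM in T5L. At 8 h it had 14.4, 10.8 and 8.96 CPM in T8H, against 5.51, 4.29 and 4.11 CPM in T8L. The groups did not overlap at any time, and the level was lower at each later time in both lights. The log2 fold changes were 1.29 ± 0.20 at 2 h (adjusted p = 0.00107), 1.61 ± 0.21 at 5 h (adjusted p = 3.47e-05) and 1.32 ± 0.22 at 8 h (adjusted p = 0.000259), from edgeR's quasi-likelihood test. The average over the 3 times was 1.41 ± 0.12 (adjusted p = 3.47e-08). The effect at 5 h minus that at 2 h was 0.33 ± 0.29, and at 8 h minus 2 h it was 0.03 ± 0.28, with adjusted p of 0.655 and 0.961. The authors' deposited table, which applied a minimum fold, lists BCH1 at 5 h (log2 fold change 1.62, FDR 0.00148) and at 8 h (1.33, FDR 0.013), and lists none of the 10 members among its 24 loci at 2 h.

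BCH2 (AT5G52570, chromosome 5, 21334793 to 21337126), the paralogue of BCH1, was a low transcript at 5 and 8 h. At 2 h it had 39.2, 27 and 25.9 CPM in T2H, against 9.85, 17.5 and 17.1 CPM in T2L. The groups did not overlap, but the log2 fold change of 1.04 ± 0.35 missed the threshold (adjusted p = 0.111). It passed with limma voom (adjusted p = 0.0221) and without a filter on low counts (adjusted p = 0.00774). At 5 h the values were 2.75, 1.80 and 3.90 CPM in T5H, against 1.28, 4.16 and 2.46 CPM in T5L, and the groups overlapped. At 8 h T8H held 37, 2 and 2 counts, against 8, 7 and 5 counts in T8L. The groups overlapped: T8H replicate 1 was above every T8L library, and T8H replicates 2 and 3, under the limit of 3 counts, were below every one. The log2 fold change was 0.68 ± 0.57 (adjusted p = 0.48). It rests on T8H replicate 1, without which it was -0.92 (adjusted p = 0.562).

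The balance of the hydroxylase transcripts was set out as the log2 ratio of BCH1 to BCH2 within each library, not corrected for length. It was 1.43, 1.75 and 1.23 in T2H, against 1.56, 1.03 and 1.22 in T2L, and these overlapped. At 5 h it was 3.06, 3.57 and 2.64 in T5H, against 2.31, 0.98 and 1.68 in T5L, which did not overlap. The 8 h value was 3.33 in T8H replicate 1, against 2.90, 2.72 and 3.14 in T8L. In T8H replicates 2 and 3 BCH2 had 2 counts, below the limit of detection, so their ratios are set largely by the prior count and are not given. Over 2 and 5 h alone, a choice made after these counts were seen, the ratio was 0.82 higher in high light, with p = 0.025 (adjusted over 3 ratios, 0.0375) in a two-sided exact permutation test that permuted libraries within each time. With 8 h included it was 0.98 higher (exact permutation p = 0.0015, adjusted p = 0.0045), a value that uses the 2 libraries below the limit. Within a time, 3 libraries against 3 cannot give an exact p below 0.1, and the values were 0.4 at 2 h and 0.1 at 5 h.

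**Figure D2:**
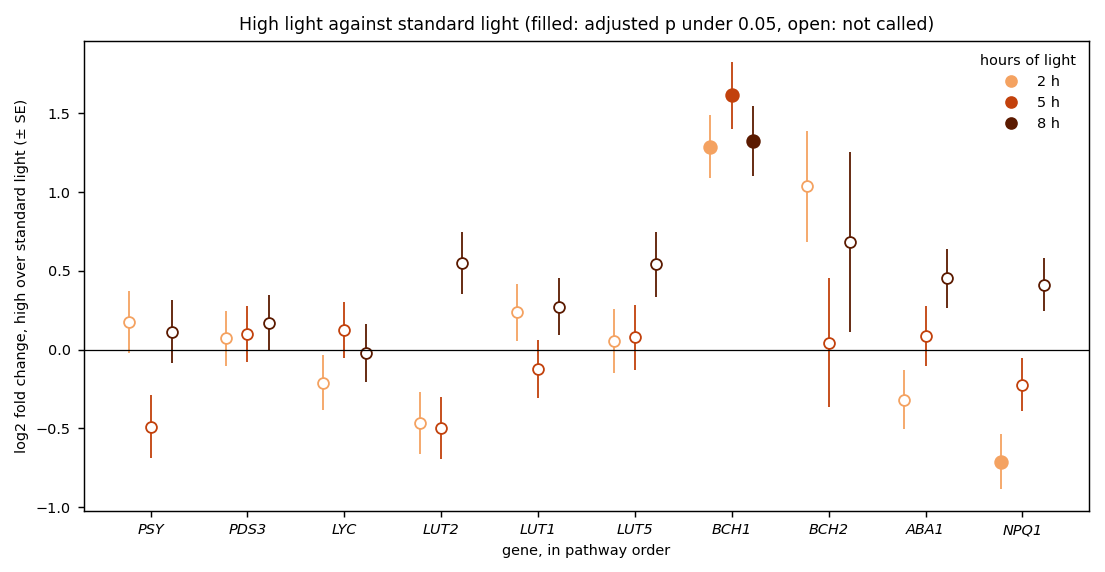
Log2 fold change of high over standard light for each member at 2, 5 and 8 h, with bars of ± 1 SE. Filled points mark BCH1 at all 3 times (1.29, 1.61 and 1.32) and NPQ1 at 2 h (-0.71), the comparisons with an adjusted p under 0.05.

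NPQ1 (AT1G08550, chromosome 1, 2706868 to 2709988), the de-epoxidase that forms zeaxanthin, was at its lowest after 2 h. It had 19.6, 21.8 and 17.6 CPM in T2H, against 37.0, 35.6 and 24.4 CPM in T2L, and the groups did not overlap. The log2 fold change was -0.71 ± 0.17 (adjusted p = 0.0265). Without any one of T2L replicates 1 and 2 and T2H replicates 1, 2 and 3, the adjusted p was 0.0545 to 0.133, with the ribosomal RNA share as a covariate it was 0.0943, and in a fit to T2H and T2L alone it was 0.138. At 5 h NPQ1 had 54.2, 62.5 and 60.7 CPM in T5H, against 75.9, 60.6 and 70.2 CPM in T5L, which overlapped (log2 fold change -0.22 ± 0.17, adjusted p = 0.419). At 8 h it had 80.0, 70.3 and 58.9 CPM in T8H, against 59.4, 50.1 and 48.0 CPM in T8L (0.41 ± 0.17, adjusted p = 0.104), and these overlapped. The effect at 8 h minus that at 2 h was 1.12 ± 0.24 (adjusted p = 0.00452) with a negative effect at 2 h and a positive one at 8 h. Of the 10 members, 2 had such a difference between 8 and 2 h, where 10.2% of all loci did. NPQ1 overlaps the gene SYP111 by 464 bases on the opposite strand, and counting was by strand. SYP111, also called KNOLLE, is among the dividing cell markers used here.

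ABA1 (AT5G67030, chromosome 5, 26753469 to 26757402) encodes the epoxidase that works against NPQ1. It had 406, 510 and 431 CPM in T2H, against 713, 555 and 411 CPM in T2L, 203, 199 and 249 CPM in T5H, against 180, 217 and 215 CPM in T5L, and 105, 102 and 96.1 CPM in T8H, against 77.8, 63.1 and 80.7 CPM in T8L. The groups overlapped at 2 and 5 h and were separate at 8 h. Log2 fold changes were -0.32 ± 0.19, 0.09 ± 0.19 and 0.45 ± 0.19, and none passed (adjusted p = 0.378, 0.811 and 0.112). The effect at 8 h minus that at 2 h was 0.77 ± 0.27 (adjusted p = 0.0655), and it passed with DESeq2 (0.0232), with limma voom (0.0481), over nuclear protein-coding loci (0.0497) and without T2L replicate 3 (0.0131).

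Within each library the log2 ratio of NPQ1 to ABA1 gives the balance of the transcripts of both directions of the cycle. It was -4.50 ± 0.12 in T2H, against -4.10 ± 0.16 in T2L, and -1.87 ± 0.18 in T5H, against -1.57 ± 0.30 in T5L (SD, n = 3 each). At 8 h it was -0.54 ± 0.16 in T8H, against -0.49 ± 0.22 in T8L. The times differed by far more than the lights: both groups at 2 h lay below T0D, at -2.52 ± 0.12, and all groups at 5 and 8 h lay above it. Averaged over times the ratio was lower by 0.25 in high light (difference -0.25, exact permutation p = 0.0208, adjusted p = 0.0311). Leaving out T5L replicate 1, T8L replicate 1 or 2, T5H replicate 1 or 3, or T8H replicate 3 took the adjusted p of this exact permutation test to between 0.0574 and 0.0671. At single times the exact permutation p was 0.1, 0.2 and 0.8.

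**Figure D3:**
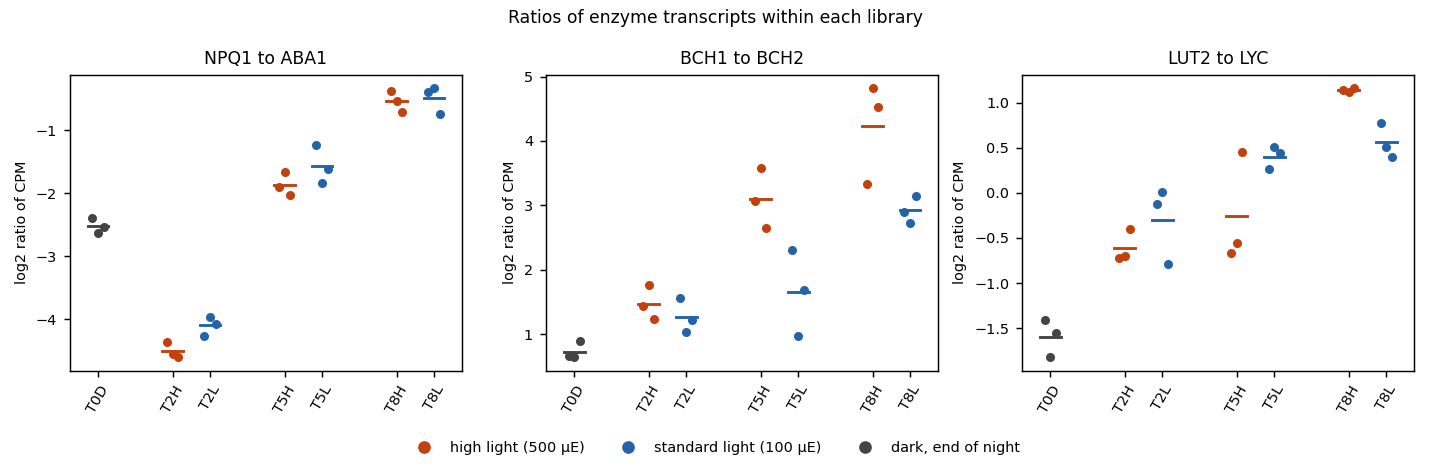
Log2 ratios of CPM within each library for 3 pairs of enzymes, with lines at group means; ratios are not corrected for gene length. NPQ1 to ABA1 is lowest at 2 h (-4.50 in T2H and -4.10 in T2L) and BCH1 to BCH2 does not overlap between lights at 5 h (mean 3.09 in T5H, against 1.65 in T5L). In T8H replicates 2 and 3 BCH1 to BCH2 rests on 2 counts of BCH2, and those points carry no level.

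On the lutein branch, LUT2 (AT5G57030, chromosome 5, 23077120 to 23080096), the epsilon-cyclase, had 44.0, 34.9 and 48.1 CPM in T2H, against 55.0, 61.3 and 59.0 CPM in T2L. At 5 h it had 26.0, 27.1 and 46.6 CPM in T5H, against 46.4, 44.4 and 48.8 CPM in T5L. At 8 h it had 50.2, 49.3 and 53.4 CPM in T8H, against 42.2, 30.7 and 31.5 CPM in T8L. High light was below standard light at 2 h, overlapped it at 5 h through T5H replicate 3, and was above it at 8 h. The log2 fold changes of -0.47 ± 0.20, -0.50 ± 0.20 and 0.55 ± 0.20 did not pass (adjusted p = 0.201, 0.102 and 0.0587). Without T5H replicate 3, which also had the high ribosomal RNA share, the value at 5 h was -0.84 (adjusted p = 0.00179), and with limma voom it was -0.58 (0.0321). At 8 h the change passed with DESeq2 (adjusted p = 0.0399), limma voom (0.0362), a replicate block (0.0487), a fit to T8H and T8L alone (0.00396) and without T8L replicate 1 (0.0379).

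The LUT2 effect itself differed between times. At 8 h minus 2 h the difference of effects was 1.02 ± 0.28 (adjusted p = 0.0209), and at 8 h minus 5 h it was 1.05 ± 0.28 (adjusted p = 0.047). For the step from 5 to 8 h 1 of 10 members passed, where 2.13% of loci did, and for 5 h minus 2 h none did, where 0.759% of loci did (1 member at an unadjusted p under 0.05). With the ribosomal RNA share as a covariate the differences at 8 h minus 2 h and 8 h minus 5 h were 0.67 (adjusted p = 0.181) and 0.81 (adjusted p = 0.208). In that fit 971 of all loci passed for 8 h minus 2 h, in place of 2003, and 55 for 8 h minus 5 h, in place of 419. The difference between 8 and 2 h also missed the threshold without T8L replicate 2, T8L replicate 3 or T2H replicate 2 (adjusted p = 0.0694, 0.0607 and 0.0575). The difference between 8 and 5 h was lost without T5L replicate 1, 2 or 3, T8L replicate 2 or 3, T5H replicate 1 or 2, or T8H replicate 1, 2 or 3 (adjusted p 0.0756 to 0.151) and in a fit to the groups compared (0.0582). LUT2 shares 74 bases with NMT1 on the same strand.

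LYC (AT3G10230, chromosome 3, 3164075 to 3166038), the beta-cyclase shared by both branches, had log2 fold changes of -0.21, 0.13 and -0.02 at 2, 5 and 8 h. Its groups in high and standard light overlapped at all 3 times. The log2 ratio of LUT2 to LYC was -0.61 ± 0.18 in T2H, against -0.30 ± 0.43 in T2L, -0.25 ± 0.62 in T5H, against 0.40 ± 0.12 in T5L, and 1.14 ± 0.02 in T8H, against 0.56 ± 0.19 in T8L. Averaged over times the ratio had a difference of -0.13 between the lights, which missed the threshold (exact permutation p = 0.517), and its sign was negative at 2 and 5 h and positive at 8 h.

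The P450 hydroxylases of lutein synthesis did not pass in high against standard light. LUT5 (AT1G31800, chromosome 1, 11396402 to 11399714) had 79.4, 81.2 and 69.0 CPM in T8H, against 58.8, 47.2 and 51.7 CPM in T8L, and these did not overlap. Its log2 fold change there was 0.54 ± 0.21 (adjusted p = 0.077), beside 0.05 at 2 h and 0.08 at 5 h. LUT1 (AT3G53130, chromosome 3, 19692757 to 19697542) had 0.24, -0.12 and 0.27. At 8 h it had 29.4, 25.5 and 28.8 CPM in T8H, against 25.4, 21.1 and 22.8 CPM in T8L, which did not overlap, by a narrow margin (adjusted p = 0.354). LUT1 shares 1900 bases with AT3G53140 on the same strand, so its counts are uncertain. In a fit to T8H and T8L alone, 5 of 10 members rose at 8 h, where 3353 of 17841 loci rose and 6455 changed in either direction. The members were BCH1, LUT2, LUT5, ABA1 and NPQ1, the last 4 with adjusted p of 0.00396, 0.00213, 0.00605 and 0.0172.

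At the entry to the pathway, PSY (AT5G17230, chromosome 5, 5659554 to 5662997) had 336, 262 and 296 CPM in T2H, against 253, 223 and 316 CPM in T2L, and 175, 142 and 148 CPM in T8H, against 158, 140 and 132 CPM in T8L. At 5 h it had 108, 146 and 163 CPM in T5H, against 190, 186 and 208 CPM in T5L. Only the groups at 5 h were separate, with high light lower. The log2 fold changes were 0.18, -0.49 ± 0.20 and 0.11, with an adjusted p of 0.11 at 5 h, which became 0.0252 without T5H replicate 3. PDS3 (AT4G14210, chromosome 4, 8190190 to 8195320) had 0.07, 0.10 and 0.17 on the log2 scale, and its groups overlapped at each time.

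Each light group was next compared with the end of the night. These 6 comparisons share the dark libraries, and hours of light cannot be told apart from the time of day. After 2 h, 9 of 10 members changed in T2H (8 up and 1 down), where 43.3% of loci changed (21.8% up and 21.5% down). In T2L 7 of 10 changed (6 up and 1 down), where 42.4% of loci did (21.1% up and 21.4% down). After 5 h, 6 changed in T5H (3 up and 3 down), where 47.2% of loci did (24.3% up and 22.8% down), and 6 in T5L (2 up and 4 down), where 46.7% did (22.9% up and 23.8% down). After 8 h, 7 changed in T8H (3 up and 4 down), where 47.3% of loci did (23.4% up and 23.9% down), and 6 in T8L (2 up and 4 down), where 42.9% did (21.1% up and 21.7% down). The authors' table, which applied a minimum fold, lists 4699 to 6167 loci per light group against the dark. Its members were 4 higher and 1 lower in T2H, 1 higher in T2L, and 1 lower in T5H. They were 1 higher and 2 lower in T5L, 2 higher and 4 lower in T8H, and 4 lower in T8L. The median log2 fold change of the members was 0.92 in T2H and 0.73 in T2L, 0.00 in T5H and 0.25 in T5L, and 0.09 in T8H and -0.13 in T8L. Over all tested loci these medians lay between 0.00 and 0.03. Transcript levels of cell type markers changed in the same comparisons, which does not show that cell numbers changed. Of the 4 mesophyll markers, 1 fell in T2H and 3 in T2L, 2 in T5H and 4 in T5L, and 3 in T8H and 4 in T8L. Of the 3 vascular markers, none fell in T2H and 1 in T2L, none in T5H and 2 in T5L, and 2 each in T8H and T8L. Of the 2 trichome markers, 1 rose in T2H and T2L and 1 fell in T5L, T8H and T8L. Of the 3 guard cell markers, 1 rose in all 6 light groups and 1 fell in T8H and T8L. Of the 3 dividing cell markers, 1 each rose in T2L and T8H and 1 fell in T5L, and the root marker PYK10 fell in T5H. Their part in the members' values was not tested.

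**Figure D4:**
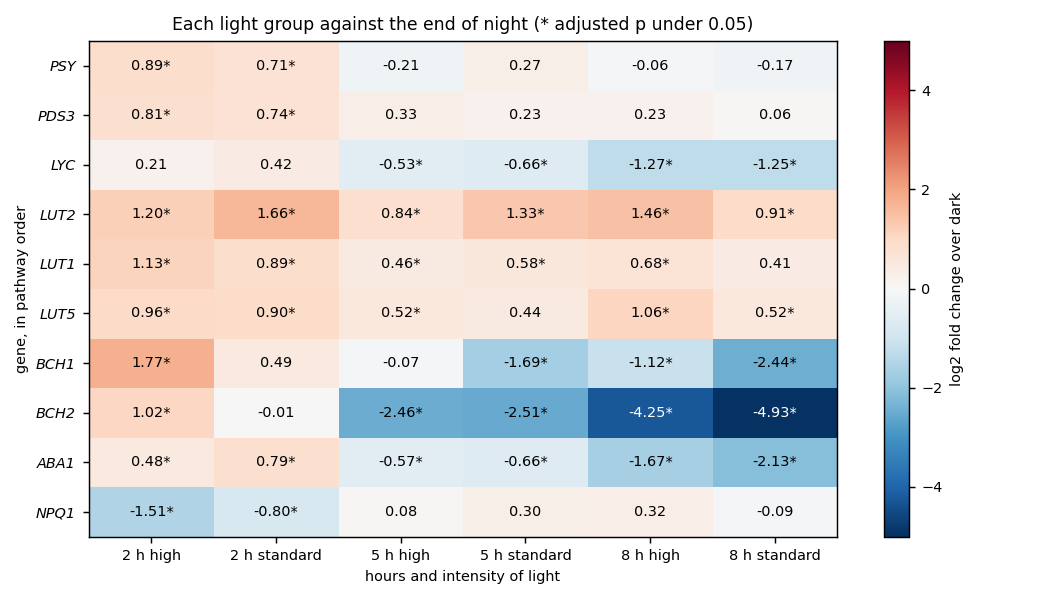
Log2 fold change of each light group over the end of the night for each member (rows, in pathway order), with asterisks at an adjusted p under 0.05. LUT2 is higher in all 6 light groups (0.84 to 1.66), while LYC, BCH2 and ABA1 are lower in the 4 groups at 5 and 8 h, down to -4.93 for BCH2 in T8L.

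The first enzymes rose at 2 h in both lights. PSY had 336, 262 and 296 CPM in T2H and 253, 223 and 316 CPM in T2L, against 187, 115 and 181 CPM in T0D, with log2 fold changes of 0.89 ± 0.20 (adjusted p = 0.000777) and 0.71 ± 0.20 (adjusted p = 0.0054). T0D replicate 2 was the lowest, and without it the T2L change was 0.52 (adjusted p = 0.0525). PDS3 rose by 0.81 in T2H and 0.74 in T2L (adjusted p = 0.000623 and 0.00164). The authors' table, which applied a minimum fold, lists PSY and PDS3 in no comparison. Neither gene passed at 5 or 8 h with all libraries, though without T0D replicate 1 PDS3 rose in T5H, T5L and T8H (adjusted p = 0.0111, 0.0312 and 0.0315). At those times PSY had log2 fold changes of -0.21 in T5H, 0.27 in T5L, -0.06 in T8H and -0.17 in T8L.

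The epsilon-cyclase rose over the dark in all 6 light groups, and the P450 hydroxylases each in 5 of them. LUT2 had 26.0 to 61.3 CPM over the light libraries, against 15.1 to 20.3 CPM in T0D, with no overlap. It rose by 1.20 in T2H and 1.66 in T2L, 0.84 in T5H and 1.33 in T5L, and 1.46 in T8H and 0.91 in T8L, with adjusted p of at most 0.00126. LUT1 rose in every light group but T8L (0.41, adjusted p = 0.0796), by 1.13 in T2H and 0.89 in T2L, 0.46 in T5H and 0.58 in T5L, and 0.68 in T8H. LUT5 rose in every light group but T5L (0.44, adjusted p = 0.0817), by 0.96 in T2H and 0.90 in T2L, 0.52 in T5H, and 1.06 in T8H and 0.52 in T8L. The T5H calls of both hydroxylases were lost without T0D replicate 2 or T5H replicate 2 or 3, and further that of LUT1 without T0D replicate 1 and that of LUT5 without T0D replicate 3 (adjusted p 0.0904 to 0.164), and that of LUT5 in a fit to the groups compared (0.114). The LUT1 call was also lost with DESeq2 (0.0512), limma voom (0.0763) and each other alternative fit. LUT5 rose in T5L as well without T0D replicate 1 (adjusted p = 0.00991) and in a fit to the groups compared (0.0473), and so did LUT1 in T8L in that kind of fit (0.0448). The LUT5 call in T8L was lost without T0D replicate 2 or 3 or any one T8L library (adjusted p 0.0528 to 0.184) and with a replicate block (0.057).

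LYC, BCH1, BCH2 and ABA1 were lower after 8 h than in the dark in both lights. BCH2 had 1.3, 0.24 and 0.25 CPM in T8H and 0.61, 0.53 and 0.34 CPM in T8L, against 14.0, 16.0 and 15.3 CPM in T0D. Its log2 fold changes were -4.25 ± 0.45 (adjusted p = 3.36e-08) and -4.93 ± 0.48 (adjusted p = 1.03e-08), the largest of any member. The T8H libraries held 37, 2 and 2 counts, with replicates 2 and 3 below the limit of detection, so the size of the T8H value rests on replicate 1. Without T8H replicate 1 it was -5.83. At 5 h BCH2 fell by 2.46 in T5H and 2.51 in T5L. At 2 h it rose by 1.02 ± 0.35 in T2H (adjusted p = 0.0202; 0.0513 to 0.107 without T0D replicate 1 or 3 or T2H replicate 1), and in T2L the value was -0.01 ± 0.35.

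BCH1 was higher than in the dark at 2 h in high light and lower at 8 h in both lights. It rose by 1.77 ± 0.20 in T2H (adjusted p = 1.33e-07), and the T2L value of 0.49 ± 0.20 missed the threshold (adjusted p = 0.0541). It passed without T2L replicate 1 (0.0294), with limma voom (0.0399), over nuclear protein-coding loci (0.0497) and with the ribosomal RNA share as a covariate (0.0303). At 5 h the T5H value was -0.07 ± 0.20 (adjusted p = 0.802), whereas BCH1 fell by 1.69 in T5L. At 8 h it fell by 1.12 in T8H and 2.44 in T8L.

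ABA1 had 96.1 to 105 CPM in T8H and 63.1 to 80.7 CPM in T8L, against 304, 351 and 314 CPM in T0D. At 2 h it rose by 0.48 ± 0.19 in T2H (adjusted p = 0.0433) and 0.79 ± 0.19 in T2L (adjusted p = 0.0015), and later it fell by 0.57 in T5H and 0.66 in T5L, and by 1.67 in T8H and 2.13 in T8L. The T2H call missed the threshold without T0D replicate 1, 2 or 3 or T2H replicate 2 or 3 (adjusted p 0.0536 to 0.115), without a count filter (0.114) and with a replicate block (0.0558). The T5H call was lost without T0D replicate 2 or T5H replicate 2 (0.0563 and 0.0611) and in a fit to the groups compared (0.0878). LYC fell by 0.53 in T5H and 0.66 in T5L, and by 1.27 in T8H and 1.25 in T8L. At 2 h LYC had values of 0.21 in T2H and 0.42 in T2L (adjusted p = 0.361 and 0.0603). The T2L value passed without T2L replicate 1 or 2 (adjusted p = 0.0198 and 0.029), with DESeq2 (0.0498) and with the ribosomal RNA share as a covariate (0.0264). The LYC call in T5H was lost without T0D replicate 3 or T5H replicate 3 (adjusted p = 0.0546 and 0.0569) and in a fit to the groups compared (0.0589).

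NPQ1 was the member that fell at 2 h. It had 19.6, 21.8 and 17.6 CPM in T2H and 37.0, 35.6 and 24.4 CPM in T2L, against 57.8, 56.5 and 53.9 CPM in T0D, with no overlap. The log2 fold changes were -1.51 ± 0.17 (adjusted p = 1.49e-07) and -0.80 ± 0.17 (adjusted p = 0.000578). At 5 and 8 h the values were 0.08 in T5H, 0.30 in T5L, 0.32 in T8H and -0.09 in T8L, and none passed (the T8H value did without T8H replicate 3, adjusted p = 0.0422). Over the 21 libraries, log2 CPM of NPQ1 had a negative Pearson r with each of the other 9 members, from -0.75 to -0.20, as a description across libraries that share a few groups. The other 36 pairs had r from -0.14 to 0.92, with 0.92 for BCH2 and ABA1, 0.91 for LYC and BCH2, 0.91 for LYC and ABA1, and 0.86 for PSY and PDS3.

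Among all 19625 other tested loci, the 3 whose log2 CPM was most like that of BCH1 over the 21 libraries were SPS1 (Pearson r = 0.97), FTSH1 (0.96) and ABCI20 (0.96). FTSH1 encodes a thylakoid metalloprotease. BCH2 ranked 120 in that order at r = 0.87. Most like BCH2 were CLC-B (0.96), AT2G26690 (0.96) and AT3G09450 (0.96), and most like ABA1 were ATH13 (0.98), NDA1 (0.97) and SLP1 (0.96). PSY was most like PPT2 (0.92), ARLA1A (0.90) and APS2 (0.90). NPQ1 was most like AT2G36410 (0.93), AT3G47160 (0.91) and Fes1B (0.91). These ranks rest on 7 groups of 3 libraries and carry no test.

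The steps around the members were described from 4 lists of 36 genes, of which 32 passed the filter on low counts. Their counts stand beside the share of all 19626 tested loci that changed in high against standard light. This share was 2.66% at 2 h, 12% at 5 h and 15.4% at 8 h. Of the 10 genes of isoprenoid supply, none changed in high against standard light at 2 h (1 at an unadjusted p under 0.05) or at 5 h (again 1), and at 8 h 1 rose and 3 fell. With DESeq2 the last gene of the plastid pathway, HDR, also passed at 5 h (-0.46, adjusted p = 0.00387), as it did with limma voom (0.0206), over nuclear protein-coding loci (0.0356) and with the ribosomal RNA share as a covariate (0.0268). Of 7 further desaturation and xanthophyll genes, 0 changed at 2 h (0 at an unadjusted p under 0.05), 1 rose at 5 h and 2 rose at 8 h. Of 13 genes of carotenoid cleavage and abscisic acid synthesis, 9 were tested: 0 changed at 2 h, with 4 at an unadjusted p under 0.05 and CCD4 past the threshold with DESeq2 (adjusted p = 0.023), limma voom (0.0353), no count filter (0.00018) and the ribosomal RNA share as a covariate (0.0283), 1 rose and 2 fell at 5 h, and 1 fell at 8 h. Of 6 regulators, 1 rose at 2 h, 1 rose and 1 fell at 5 h, and 1 rose and 2 fell at 8 h.

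In isoprenoid supply, DXS, the first enzyme of the plastid pathway, had a mean of 93.4 CPM in T8H, against 135 CPM in T8L (log2 fold change -0.54, adjusted p = 0.0286). HDR had 65.5 CPM in T8H, against 96.0 CPM in T8L (-0.55, adjusted p = 0.0192), and ISPF 17.8 CPM, against 31.7 CPM (-0.84, adjusted p = 0.0225). GGPPS11, which makes the substrate of phytoene synthase, had 79.8 CPM in T8H, against 47.8 CPM in T8L (0.74, adjusted p = 0.0301). Each of these 4 calls was lost without at least 4 of the 6 libraries in turn, with adjusted p from 0.0506 to 0.136, and those of DXS and HDR without a count filter (0.0989 and 0.0985). Averaged over times, DXS and HDR fell by 0.35 and 0.34 (adjusted p = 0.00996 and 0.00951), the HDR call being lost without a count filter (0.0562). Leaving out T5H replicate 3, with its high ribosomal RNA share, gave GGPPS11 a value of -0.91 at 5 h (adjusted p = 0.000297) and HDR one of -0.44 (0.0479). Without T2L replicate 3 ISPF had 0.92 at 2 h (adjusted p = 0.0205).

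Between the members, CRTISO, the carotenoid isomerase, rose at 8 h, to a mean of 30.6 CPM in T8H, against 19.2 CPM in T8L (0.67 ± 0.16, adjusted p = 0.00538). The locus AT2G21860, a violaxanthin de-epoxidase-like gene in the authors' deposited table, rose at 5 h to 61.0 CPM in T5H, against 34.9 CPM in T5L (0.80 ± 0.19, adjusted p = 0.00692). At 8 h it had 58.4 CPM in T8H, against 23.9 CPM in T8L (1.29 ± 0.19, adjusted p = 7.12e-05). Both calls of AT2G21860 and that of CRTISO held under all alternatives tried.

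Of the cleavage genes, CCD4, a carotenoid cleavage dioxygenase, had 41.5 CPM in T5H, against 92.9 CPM in T5L (-1.16 ± 0.30, adjusted p = 0.0144), and 6.48 CPM in T8H, against 21.9 CPM in T8L (-1.81 ± 0.33, adjusted p = 0.000736). The call at 5 h was lost without T5L replicate 3 or T5H replicate 1 (adjusted p = 0.051 and 0.0758). CCD8, of strigolactone synthesis, had 61 counts in all in T5H, against 10 in T5L (2.77 ± 0.92, adjusted p = 0.0498), and each left-out library but T5H replicate 3 took that call away (0.0765 to 0.206), as did the ribosomal RNA share as a covariate (0.135) and a replicate block (0.0862). ABA3, the molybdenum cofactor sulfurase needed for abscisic acid synthesis, had 2.64 CPM in T5H, against 7.28 CPM in T5L (-1.48 ± 0.44, adjusted p = 0.0274). Leaving out any T5L library or T5H replicate 1 gave ABA3 an adjusted p of 0.0547 to 0.142, and the ribosomal RNA share as a covariate gave 0.0796. Averaged over times, CCD4 fell by 1.32, CCD8 rose by 1.86 and ABA3 fell by 0.84 (adjusted p = 2.1e-05, 0.0103 and 0.0152).

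Among regulators, HY5, a bZIP factor that promotes light responses and binds G-boxes, had 32.1 CPM in T2H, against 17.1 CPM in T2L, 12.6 CPM in T5H, against 2.08 CPM in T5L, and 14.4 CPM in T8H, against 2.91 CPM in T8L. Its log2 fold changes were 0.90 ± 0.24, 2.58 ± 0.28 and 2.31 ± 0.27 (adjusted p = 0.045, 2.61e-06 and 6.42e-06). The call at 2 h was lost without any one of T2L replicates 1 to 3 and T2H replicates 1 and 2 (adjusted p 0.0622 to 0.188), with the ribosomal RNA share as a covariate (0.132) and in a fit to T2H and T2L alone (0.096). RAP2.2, an ERF family factor, fell by 0.65 at 5 h and 0.70 at 8 h (adjusted p = 0.0236 and 0.0116), calls lost without T5L replicate 1 or 3 or T5H replicate 1 (0.0667 to 0.124) or in a fit to the groups compared (0.0759), and at 8 h without T8H replicate 1 (0.0934). AT5G61670, named an orange protein in the authors' deposited table, fell by 0.74 at 8 h (adjusted p = 0.0129), and not without T8H replicate 1 or 2 (0.0967 and 0.0758). PIF1, a repressor of PSY transcription in the dark, fell by 0.61 averaged over times (adjusted p = 0.0123) and passed at no single time in the same fit.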

How the data were processed

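RNA was measured in 21 rosette libraries, 3 in each of 7 groups, by single-end sequencing of 75 bp on 1 lane after ribosomal RNA depletion with a strand-specific kit, per the labels' protocols. The authors deposited raw counts per locus for each library, made with featureCounts v1.5.0-p1 by strand over 1 span per locus, introns included, per the file headers. Read handling used Subread 1.5.0, SAMtools 1.3.1, Trim Galore 0.4.4 and FastQC 0.11.7, per the submitters' processing notes. Aligner settings and build are not given in those sources, but all 10 members have the TAIR10.1 positions. A further table deposited by the authors gives log2 fold changes, mean log2 CPM and p-values as FDR for loci that passed their glmTreat test, whose minimum fold is not stated. Their table of log2 RPKM was not used here.

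Groups were taken from the sample labels. The deposited counts were scaled by TMM and tested in edgeR 4.0.16 by quasi-likelihood (R 4.3.3, robust, all 21 libraries, 1 coefficient per group, filterByExpr), and p-values were adjusted by Benjamini-Hochberg over all 19626 tested loci in each of 13 contrasts. "Rose" and "fell" mean an adjusted p under 0.05. SE was taken as the size of the log2 fold change divided by the root of its F value. CPM uses TMM-scaled totals, and log2 CPM a prior count of 2. CPM per kb divides by the annotated exon union. The 3 ratios were tested by exact permutation within times. Alternatives were DESeq2 1.42.0, limma 3.58.1 (voom), no count filter, nuclear protein-coding loci only, the ribosomal RNA share as covariate, a replicate block, a fit to the groups compared, and each library left out. The limit of 3 counts reflects counting error alone, because PCR duplicates cannot be seen in counts.

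The rule for the members uses no measured value, but the members, lists and tests were chosen after an earlier analysis of these libraries, whose gene-level results for high light and for the dark were known. Pathway genes are named where they passed in high against standard light at any time or on average, and likeness partners are the top 3 by Pearson r for 5 members. Genes that changed only under an alternative were named after their values were seen.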

Additional observations from a re-analysis of the deposited data

Results flagged for a closer look

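The high-light effect of LUT2, the epsilon-cyclase gene, differed between times in edgeR's quasi-likelihood test of the difference itself. It was 1.02 ± 0.28 (log2) higher at 8 h than at 2 h (adjusted p = 0.0209) and 1.05 ± 0.28 higher at 8 h than at 5 h (adjusted p = 0.047). All T8H libraries lay above all T8L libraries, while all T2H libraries lay below all T2L libraries. The T8H libraries also held 19.0 to 26.0% ribosomal RNA, against 3.58 to 8.55% in T8L, so share and light cannot be told apart at 8 h. With that share as a covariate neither difference passed, as given above. The covariate also lowered the number of all loci that passed, from 2003 to 971 for 8 h minus 2 h and from 419 to 55 for 8 h minus 5 h.

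The high-light effect of NPQ1, the violaxanthin de-epoxidase gene, was 1.12 ± 0.24 (log2) higher at 8 h than at 2 h (adjusted p = 0.00452). This call held under all alternatives tried, the covariate included.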

How the results depend on the processing

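Of the results given for single members, none reversed where it was called, and BCH1 in high against standard light passed at all 3 times under every alternative tried. Counts of members changed moved by more than 1.5 times as follows. At T8H against T8L the count of 1 became 2 with DESeq2, with limma voom and with a replicate block, and 5 in a fit to the groups compared. At T5H against T5L it became 2 with limma voom. Without a count filter the averaged effect had 2 members. With the ribosomal RNA share as covariate, T2H against T2L had 1, the effect at 8 h minus 5 h had 0 and that at 8 h minus 2 h had 1. In a fit to the groups compared, T2H against T2L had 1, T5H against T0D had 2 and the effect at 8 h minus 5 h had 0. Smaller moves were that T2H against T2L had 3 with limma voom and without a count filter (BCH2), and the effect at 8 h minus 2 h had 3 with DESeq2, limma voom and nuclear loci only (ABA1). T2L against T0D had 8 with DESeq2, limma voom and nuclear loci only and 9 with the covariate, where the main count was 7. T5H against T0D had 5 in place of 6 in each of the other 6 fits (LUT1 lost), and T2H against T0D had 8 in place of 9 without a count filter and with the block (ABA1 lost). T8L against T0D had 5 with the block and 7 in a fit to the groups compared, and T5L against T0D had 7 in that fit, where both counts were 6. BCH2 was not tested at T8H against T8L in a fit to those groups, where it failed the count filter.

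Leaving out 1 library at a time gave 1 to 2 members at T2H against T2L, 1 to 3 at T5H against T5L, 1 to 2 at T8H against T8L, 3 to 6 at T5H against T0D, 1 to 2 for the averaged effect, 0 to 1 for 8 h minus 5 h and 1 to 3 for 8 h minus 2 h. The difference in the log2 ratio of NPQ1 to ABA1 ran from -0.30 to -0.20, with exact permutation p adjusted over 3 ratios of 0.00938 to 0.0671.

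Replicate numbers do not pair the libraries: same-numbered libraries of different groups had a mean correlation of deviations of 0.002, with 2 of 63 pairs over 0.1, beside -0.001 for other pairs. With the replicate block the NPQ1 to ABA1 difference of -0.25 had an exact permutation p of 0.082, adjusted. The median of all loci moved by no more than 0.1 (log2) in any fit. Every fit used TMM or DESeq2's own scaling, which both assume that most loci are unchanged, so this median cannot check the scaling. Depth limits BCH2 at 8 h, where 2 T8H libraries held 2 counts each. Over 2 and 5 h alone, chosen after seeing the data, the NPQ1 to ABA1 difference was -0.35 and that of LUT2 to LYC -0.48 (exact permutation, adjusted p = 0.0375 and 0.075).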

Other observations

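Several genes around the members also differed from the end of the night, as 42.4 to 47.3% of all tested loci did in the 6 light groups. In T8H, 4 of 10 isoprenoid supply genes rose and 2 fell, and 6 of 7 further desaturation and xanthophyll genes rose. Of 9 tested cleavage and abscisic acid genes 2 fell, and of 6 regulators 1 rose and 3 fell. The genes given here are some of those named above, so they do not stand for their lists. HDR, the last enzyme of the plastid isoprenoid pathway, had a mean of 65.5 CPM in T8H and 96.0 CPM in T8L, against 458 CPM in T0D (log2 fold changes -2.80 and -2.26, adjusted p = 1.39e-12 and 5.9e-11). DXS fell by 1.62 in T8H and 1.09 in T8L, while GGPPS11 rose by 2.14 in T8H and 1.40 in T8L. AT2G21860, the de-epoxidase-like gene, rose in all 6 light groups, by 2.18 in T2H and 2.28 in T2L, 2.41 in T5H and 1.61 in T5L, and 2.35 in T8H and 1.06 in T8L. CCD4 had 6.48 CPM in T8H and 21.9 CPM in T8L, against 118 CPM in T0D (-4.24 and -2.43). HY5 fell by 3.09 in T5L and 2.61 in T8L, and its values of -0.51 in T5H and -0.30 in T8H did not pass (adjusted p = 0.0912 and 0.318). These light groups share the dark libraries.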
